A study of Mus musculus with 27 samples.

Results

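The 10 genes described here, Fos, Fosb, Fosl1, Jun, Junb, Egr1, Egr2, Egr3, Ier2 and Ier3, are immediate early genes of the Fos, Jun, Egr and Ier families. They were taken by symbol from a table of raw read counts that holds 24062 gene symbols, and all 10 were in it. The series measured bulk RNA in 27 libraries of C57BL/6 mice, 3 in each of 9 groups, in mouse embryonic fibroblasts and in whole lung with altered Foxm1, a forkhead factor gene known for its part in mitosis. Experiment 1 held fibroblasts labelled KO-NTD, KO and WT, and experiment 2 held fibroblasts labelled Het-NTD, Het, WT-NTD and WT. Lungs came from animals aged 10 days and were labelled Het or WT. The fibroblasts were early passage cells grown out of embryos and were taken unsynchronised at about 90% confluence, and the labels name no stimulus before harvest. The labels explain neither NTD nor how Foxm1 was changed, and they do not give the origin of the libraries of a group (separate embryos, animals or cultures). The p-values therefore measure the spread between these libraries, which may be technical.

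Immediate early genes are transcribed within minutes of a growth factor, stress or calcium signal, without new protein synthesis, when kinases such as ERK activate transcription factors already bound to their promoters. Fos and Jun proteins pair to form AP-1, Egr proteins are zinc finger transcription factors that bind GC-rich sites, and Ier2 and Ier3 are short proteins named for the same rapid response. In dividing fibroblasts these genes are known for linking serum growth factors to entry into the cell cycle, and their transcripts decay quickly, so a level at one moment reflects recent signals.

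Promoter windows from RefSeq (GRCm38.p6), running from 250 bases before to 50 bases after a transcript start, were found for 6 of the 10 genes: Fos, Fosb, Jun, Junb, Egr2 and Ier3. Those of Fos and Egr2 are shown because both genes passed the test between Het and WT fibroblasts of experiment 2, in opposite directions, and of the 5 Egr2 windows the one shown is 1 of 4 with a CArG box. Capitals mark the motifs searched other than the GC box, and positions count from 0 at the first transcribed base. The Fos window lies at chr12:85473640-85473939 and the Egr2 window at chr10:67537619-67537918, both on the plus strand.
Fos: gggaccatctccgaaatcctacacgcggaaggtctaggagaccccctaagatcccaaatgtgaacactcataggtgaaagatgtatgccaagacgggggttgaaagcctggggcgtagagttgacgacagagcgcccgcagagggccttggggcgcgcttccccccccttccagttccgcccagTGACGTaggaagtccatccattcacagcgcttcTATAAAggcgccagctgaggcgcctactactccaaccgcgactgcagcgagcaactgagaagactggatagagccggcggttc
Egr2: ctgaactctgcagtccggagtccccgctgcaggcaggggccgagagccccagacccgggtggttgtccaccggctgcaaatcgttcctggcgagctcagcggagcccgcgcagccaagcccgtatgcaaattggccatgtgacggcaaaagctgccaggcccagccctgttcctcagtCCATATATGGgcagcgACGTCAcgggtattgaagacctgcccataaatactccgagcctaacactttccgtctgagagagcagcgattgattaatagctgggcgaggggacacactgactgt

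The Fos window held TGACGT, the core of the cyclic AMP response element, at -66 to -61 and a TATA box, TATAAA, at -33 to -28. The Egr2 window held a CArG box, the site of serum response factor, at -72 to -63 and the same cyclic AMP core on the other strand, ACGTCA, at -56 to -51. Motifs were searched on both strands. The CArG box was in a window of 1 of the 6 genes and of 1.81% of 27025 genes, TGACGT in 2 of 6 and 8.37%, and TATAAA in 2 of 6, Fos and Junb, and 15.7%. In Junb TATAAA began at the RefSeq transcript start used for the window. The GENCODE start of Junb, 84978718 on the minus strand, lies downstream of this TATAAA, so the position of the motif depends on the annotation. The GC box, GGGCGG, was in 5 of 6 and 38.2% of genes, and the Egr site, GCGNGGGCG, in 1 of 6, Fosb, and 6.27%. The Egr site of Fosb overlapped a GC box. The AP-1 site, searched only as TGANTCA, was in none of the 6 and in 8.97% of genes. Other forms of the site were not searched. These are matches of letters within short windows, and factor binding was not measured. Bases outside the windows were not searched. A motif missing from a window, such as the CArG box in Fos, may therefore lie beyond it.

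Libraries held 29730693 to 69517834 counts (median 42708114), and 15963 to 18168 symbols had a count. Levels below are CPM (counts scaled to library size, with the TMM correction) within the stated set of libraries. Foxm1 averaged 146 ± 6.64 CPM in the libraries labelled KO and 136 ± 3.34 CPM in WT of experiment 1 (SD, n = 3 each). Its count therefore cannot check the KO label, and directions are given for the libraries as labelled. The tissue labels fitted their markers, since 5 alveolar type 2 markers summed to 15350 to 24361 CPM in the lungs and 14.7 to 18.8 CPM in Het and WT fibroblasts on a common scale, and 10 fibroblast markers to 9545 to 12792 CPM in the lungs and 47894 to 64973 CPM in those fibroblasts. Within the separate fits, fibroblast libraries had summed marker levels of at most 8.25 CPM for endothelium, 1.46 for neutrophils, 0.664 for erythroid cells and 0.163 for T cells. For alveolar type 1 cells they had 61.6 to 125 CPM. Lung libraries had 2133 to 2755, 43.1 to 80.6, 99.3 to 155, 11.4 to 19.9 and 2691 to 3723 CPM in the same order. Of the 4 erythroid markers, 3 were at 0 in every library, lungs included, so each erythroid sum is of 1 gene. Libraries KO 1 and Lung Het 3 stood apart from their groups: KO 1 differed from KO 2 and 3 by a chi-square per degree of freedom of 115 and 113, against 18.3 between KO 2 and 3, and Lung Het 3 from Lung Het 1 and 2 by 211 and 215, against 51.0. At lower values WT-NTD 1 also differed from WT-NTD 2 and 3, by 34.7 and 24.4, against 8.52 between those. Macrophage markers (12 genes) were also present in the fibroblast libraries at summed levels that differed between groups, and are given beside the fibroblast results.

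Coordinates are from GENCODE M21 on GRCm38, the assembly the files call mm10. Fos lies on chromosome 12 (85473890 to 85477273, plus strand), Fosb on 7 (19302696 to 19310051, minus), Jun on 4 (95049034 to 95052222, minus), Egr2 on 10 (67535475 to 67542188, plus), Egr3 on 14 (70077203 to 70082614, plus) and Ier3 on 17 (35821684 to 35822923, plus). Junb (84974484 to 84978718) and Ier2 (84661331 to 84662852) lie on the minus strand of chromosome 8. Counts cover the merged exons of a gene. Fosl1, on chromosome 19 (5447547 to 5455946, plus), shares 1163 of its 2033 exon bases with Ccdc85b on the other strand, and the library kit does not mark strand, so its values are uncertain. Junb shares 173 exon bases with Prdx2, and Jun shares 232 with an antisense transcript, Junos, which has no symbol in the table.

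Per kilobase of exon, 5 of the genes stood well above the rest in every fibroblast group. On a scale common to all 27 libraries, Egr1 averaged 48.4 to 73.6 CPM per kb over the 7 fibroblast groups, Ier2 49.7 to 66.0, Junb 37.7 to 64.2, Jun 43.9 to 59.1 and Ier3 47.2 to 55.8. Fos followed at 8.25 to 15.2 CPM per kb, with Egr2 at 5.79 to 15.2, Fosl1 at 3.89 to 5.56 and Egr3 at 1.76 to 4.68. Fosb, an AP-1 subunit of the Fos family, was the lowest, at 0.395 to 0.974. In lung the order was another one: Jun, Ier2 and Ier3 led at 47.8 to 57.6 CPM per kb over both groups, followed by Junb at 11.6 in Het and 13.1 in WT and by Egr1 at 6.46 in Het and 5.51 in WT. Fosl1, a Fos family subunit known from growing and invasive cells, was last in lung.

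**Figure D1:**
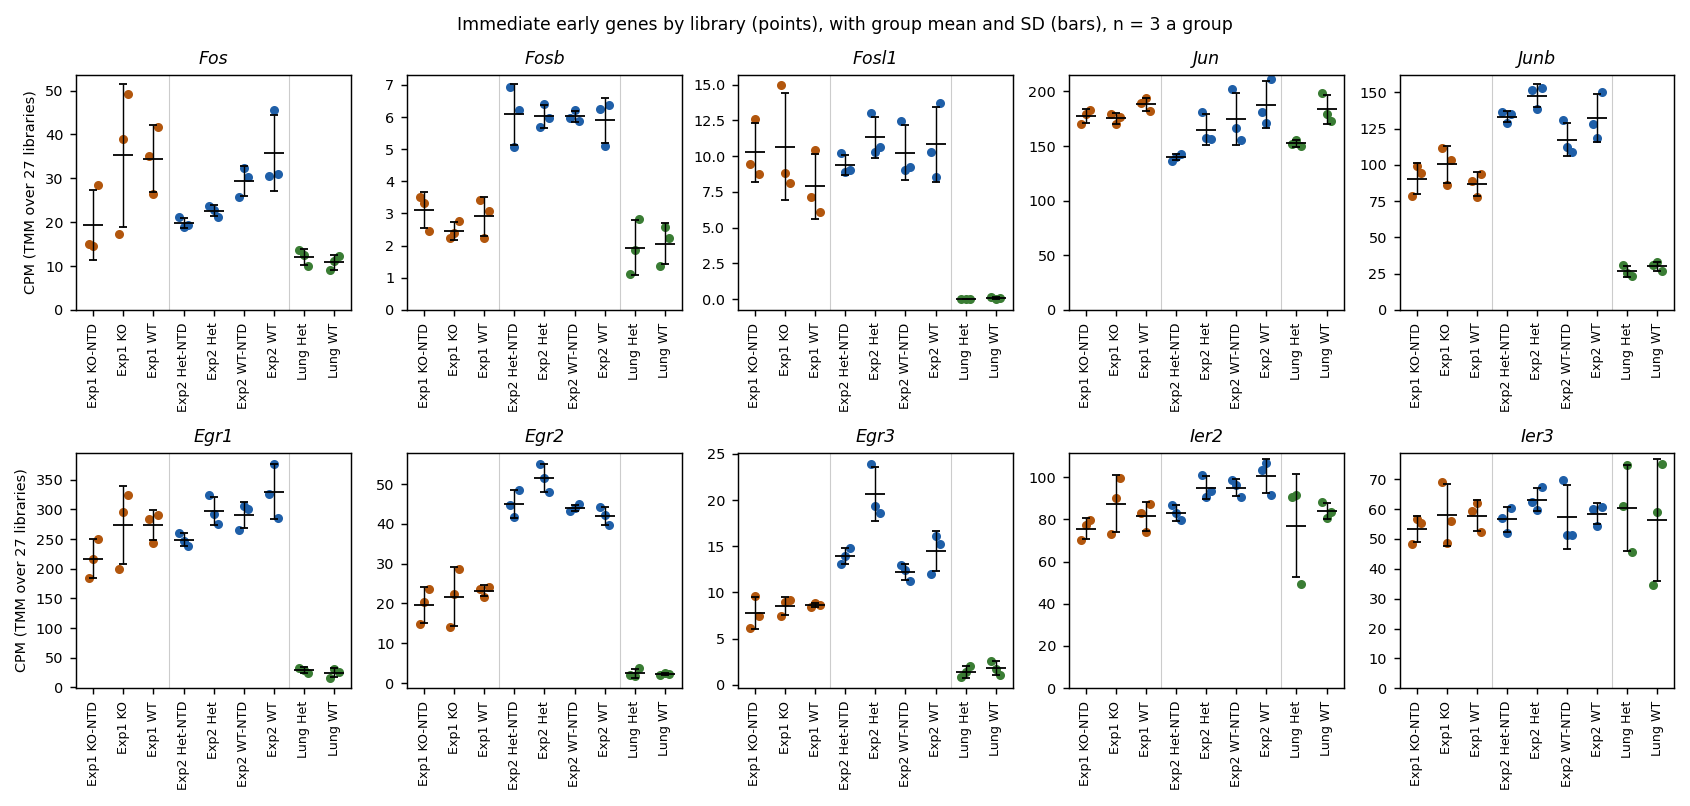
Levels of the 10 genes in every library, as CPM scaled over all 27 libraries. Points are libraries, bars the group mean and SD (n = 3), and colours mark experiment 1, experiment 2 and lung. Fosb, Junb, Egr2 and Egr3 sat lower in every experiment 1 group mean than in every experiment 2 group mean, and the lung libraries lay below every fibroblast library for Fos, Fosl1, Junb, Egr1, Egr2 and Egr3.

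The spread of group means differed between genes. The highest fibroblast group mean over the lowest was 2.66 for Egr3, 2.62 for Egr2, 2.47 for Fosb, 1.84 for Fos, 1.70 for Junb, 1.52 for Egr1, 1.43 for Fosl1, 1.35 for Jun, 1.33 for Ier2 and 1.18 for Ier3. For Egr3, Egr2 and Fosb much of this lay between the experiments. Egr2 averaged 42.0 to 51.6 CPM in the experiment 2 groups and 19.7 to 23.2 CPM in the experiment 1 groups, Fosb 5.90 to 6.08 CPM in experiment 2 and 2.46 to 3.10 CPM in experiment 1, and Egr3 12.2 to 20.6 CPM in experiment 2 and 7.75 to 8.66 CPM in experiment 1. For these 3 genes the lowest experiment 2 group and the highest experiment 1 group did not overlap, but the experiments share no libraries and were not tested against each other, so culture, date and library batch cannot be told apart. Junb averaged 117 to 148 CPM in experiment 2 and 86.8 to 100 CPM in experiment 1, and the neighbouring groups overlapped (WT-NTD down to 109, KO up to 111).

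Within the order of groups few neighbours were apart. For Egr1 the 7 fibroblast groups ran from 217 CPM in KO-NTD to 330 CPM in WT of experiment 2, each overlapping the next. The same held for Fosl1, at 7.90 to 11.3 CPM. Egr3 had the most steps: Het of experiment 2 (20.6 ± 2.89 CPM) lay apart from WT of the same experiment (14.5 ± 2.16), Het-NTD (13.9 ± 0.827) from WT-NTD (12.2 ± 0.856), and WT-NTD from WT of experiment 1 (8.66 ± 0.178). Fos in experiment 2 averaged 19.9 ± 1.17 CPM in Het-NTD, 22.6 ± 1.23 CPM in Het and 29.5 ± 3.44 CPM in WT-NTD on the scale of all 27 libraries. Het lay apart from WT-NTD, and WT-NTD overlapped WT. Between Het-NTD and Het the order of the nearest libraries depended on the scaling, at 21.21 CPM in Het-NTD 1 and 21.23 CPM in Het 3 over all 27 libraries, and 20.5 CPM in Het-NTD 1 and 20.4 CPM in Het 3 within experiment 2. For Fos, WT of both experiments and KO overlapped one another at 34.4 to 35.7 CPM. Jun was lowest in Het-NTD (140 ± 3.02 CPM), below the next group, Lung Het (152 ± 3.02). Ier3 overlapped between all neighbours, lungs included.

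Het against WT fibroblasts of experiment 2 set the Het label against wild type with no NTD on either side. Of the 10 genes, Egr2 and Egr3 rose and Fos fell, while the other 7 did not pass (edgeR quasi-likelihood test, Benjamini-Hochberg adjustment over 14314 genes, threshold 0.05). That is 3 of 10, in a comparison that called 16.5% of all genes, 7.89% higher and 8.61% lower. The median log2 change of the 10 was 0.05, against 0.01 over all genes tested. The groups did not overlap for these 3 genes, as for 33.9% of all genes. Foxm1 itself, also without overlap, averaged 129 ± 2.63 CPM in Het and 147 ± 1.99 CPM in WT. It did not pass (log2 difference -0.18, edgeR adjusted p = 0.249).

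Fos, the AP-1 subunit that gives the family its name, measured 22.7, 22.1 and 20.4 CPM in Het and 29.2, 44.0 and 29.7 CPM in WT. The Het libraries lay close together and all below the WT libraries, of which WT 2 was far above the others. The log2 change was -0.66 ± 0.14 (SE, edgeR adjusted p = 0.0116), and -0.44 without WT 2 (edgeR adjusted p = 0.0129). Fosl2, another Fos relative from the list of other immediate early genes, did not pass (0.16, edgeR adjusted p = 0.0966).

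Egr2, a zinc finger factor known for nerve myelination and also induced by serum, measured 53.1, 49.8 and 46.3 CPM in Het and 42.4, 40.6 and 38.2 CPM in WT. Its log2 change was 0.30 ± 0.07 (edgeR adjusted p = 0.00976), a ratio of 1.23. Egr3, a related factor that Egr1 can induce, measured 23.1, 18.7 and 17.9 CPM in Het and 11.5, 15.6 and 14.6 CPM in WT. For both genes every Het library lay above every WT library, with the highest Het value in Het 1. The log2 change of Egr3 was 0.52 ± 0.12 (edgeR adjusted p = 0.0129), and 0.40 without Het 1, where it missed the threshold (edgeR adjusted p = 0.0529).

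Egr1, the Egr gene with the highest level per kb, averaged 287 ± 23.3 CPM in Het and 317 ± 44.7 CPM in WT, a log2 difference of -0.15 (edgeR adjusted p = 0.333). Jun, the main partner of Fos in AP-1, averaged 159 ± 13.5 CPM in Het and 181 ± 20.3 CPM in WT (-0.19, edgeR adjusted p = 0.237). Junb, which can restrain Jun, averaged 142 ± 7.31 CPM in Het and 127 ± 15.8 CPM in WT (0.16, edgeR adjusted p = 0.225), and passed only without WT 3 (0.27, edgeR adjusted p = 0.039). The groups overlapped for all 3. Fosb, Fosl1, Ier2 and Ier3 gave log2 differences of 0.03, 0.07, -0.08 and 0.11 (edgeR adjusted p from 0.456 to 0.898).

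Macrophage markers moved with these results. Their sum was 11.2 to 65.2 CPM in Het and 159 to 193 CPM in WT, 9 of the 12 were called lower, none of the 12 higher, and the median log2 change was -2.40. With the mean log2 level of these markers in each library added to the fit, an alternative chosen with the data in view, Fos stood at -0.81 (edgeR adjusted p = 0.123), Egr2 at 0.38 (0.10) and Egr3 at 0.73 (0.0717), so that none of the 3 passed while their values kept their sign and were larger. Groups held 84.2% of the variance of that covariate, so genotype and macrophage level largely coincide, and the part of macrophages in the result was not tested. In bulk RNA, fewer cells of a type and less RNA per cell cannot be told apart either. With only the Het and WT libraries in the fit, Egr2 passed (edgeR adjusted p = 0.0319) and Fos and Egr3 did not (0.0532 and 0.0571), with log2 changes of -0.66 for Fos and 0.52 for Egr3.

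**Figure D2:**
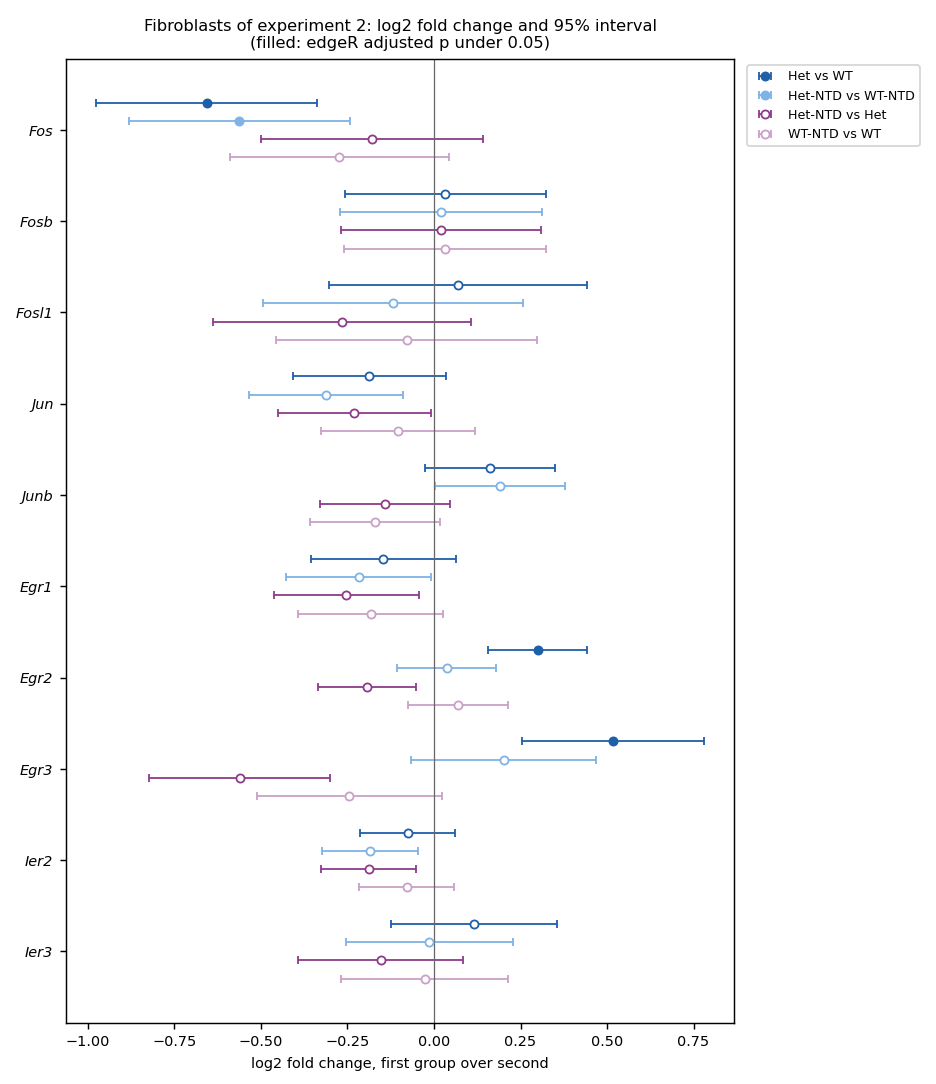
Log2 fold changes of the 10 genes in experiment 2, first named group over second, with 95% intervals from the fit over 12 libraries. Filled points passed the edgeR test: Fos in Het over WT and in Het-NTD over WT-NTD, and Egr2 and Egr3 in Het over WT.

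Het-NTD against WT-NTD compared the same genotypes where both carry NTD. Fos fell again, as the 1 gene of 10 called, in a comparison that called 11.5% of all genes (5.24% higher, 6.24% lower). It measured 20.5, 18.4 and 18.8 CPM in Het-NTD and 24.7, 31.2 and 29.2 CPM in WT-NTD, with no overlap. The log2 change was -0.56 ± 0.15 (SE, edgeR adjusted p = 0.0305). The call was lost without Het-NTD 1, 2 or 3 (edgeR adjusted p = 0.069, 0.111 and 0.0918) and without WT-NTD 2 or 3 (0.106 and 0.0897), with log2 changes of -0.49 to -0.61.

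The groups were apart for 5 of the 10 genes, against 32.1% of all genes: Fos, Jun, Egr1 and Ier2 were lower in Het-NTD and Egr3 higher. Jun averaged 135 ± 2.99 CPM in Het-NTD and 168 ± 22.9 CPM in WT-NTD (log2 difference -0.31, edgeR adjusted p = 0.0732). DESeq2 called Jun (adjusted p = 0.0207), and edgeR did without WT 3 or WT-NTD 3 (0.0454 and 0.0462). Ier2 averaged 80.4 ± 3.59 CPM in Het-NTD and 91.4 ± 3.82 CPM in WT-NTD (-0.19, edgeR adjusted p = 0.083, and 0.0409 without WT 3). Neither passed in the reported fit.

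Egr1 averaged 240 ± 10.6 CPM in Het-NTD and 279 ± 20.9 CPM in WT-NTD (-0.22, edgeR adjusted p = 0.181). Egr2 averaged 43.5 ± 3.38 CPM in Het-NTD and 42.4 ± 0.827 CPM in WT-NTD (0.04, edgeR adjusted p = 0.778), and Egr3 13.5 ± 0.810 CPM in Het-NTD and 11.7 ± 0.803 CPM in WT-NTD (0.20, edgeR adjusted p = 0.34), so neither Egr gene called in Het against WT was called here. Fosb, Fosl1, Junb and Ier3 gave 0.02, -0.12, 0.19 and -0.01 (edgeR adjusted p from 0.191 to 0.957). Macrophage markers summed to 11.6 to 16.7 CPM in Het-NTD and 66.5 to 157 CPM in WT-NTD, with 11 of 12 called lower. With their score as a covariate Fos stood at -0.72 (edgeR adjusted p = 0.261), and their part in the result was not tested.

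Het-NTD against Het set NTD on the Het background. None of the 10 genes passed, in a comparison that called 0.014% of all genes (2 of 14314; 0.00699% higher and 0.00699% lower), but 9 of 10 log2 differences were below 0 with a median of -0.19, against 0.00 over all genes. At an unadjusted p under 0.05 there were 5, Jun, Egr1, Egr2, Egr3 and Ier2, against 6.26% of all genes (896 of 14314), and DESeq2 called 1, Egr3, among 23 genes in all. The groups did not overlap for 6 genes (Fosl1, Jun, Junb, Egr1, Egr3 and Ier2), against 16.3% of all genes. The 9 share the 3 Het libraries, so their common sign is not 9 independent observations.

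Egr3 had the largest difference of the 10 here. It measured 12.7, 13.4 and 14.3 CPM in Het-NTD and 23.1, 18.7 and 17.9 CPM in Het. The log2 difference was -0.56 ± 0.12 (edgeR adjusted p = 0.525, unadjusted p = 5.06e-04, DESeq2 adjusted p = 0.0213). Egr1 averaged 240 ± 10.6 CPM in Het-NTD and 287 ± 23.3 CPM in Het (-0.25, edgeR adjusted p = 0.751). Ier2 averaged 80.4 ± 3.59 CPM in Het-NTD and 91.6 ± 5.15 CPM in Het (-0.19, edgeR adjusted p = 0.729). Macrophage markers summed to 11.6 to 16.7 CPM in Het-NTD and 11.2 to 65.2 CPM in Het, with none of 12 called. All 12 were nevertheless below 0, with a median log2 difference of -1.34, and their part in the result was not tested.

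WT-NTD against WT gave no call among the 10 genes either, by edgeR or DESeq2 and with none at an unadjusted p under 0.05, in a comparison that called 0.014% of all genes. The groups overlapped for all 10, against 9.33% of all genes whose groups did not. The log2 differences ran between -0.27 for Fos (28.4 ± 3.33 CPM in WT-NTD and 34.3 ± 8.42 CPM in WT, edgeR adjusted p = 0.685) and 0.07 for Egr2 (0.813). Macrophage markers summed to 66.5 to 157 CPM in WT-NTD and 159 to 193 CPM in WT, without overlap. Of the 12 markers 11 were below 0 (median log2 difference -0.71) and none was called. The test of the difference between the NTD effects in Het and in WT called none of the 10, and 0% of all genes (711 genes had an unadjusted p under 0.05, and DESeq2 called 3). Its values for Egr2 (-0.26, edgeR adjusted p = 0.892, unadjusted p = 0.015) and Egr3 (-0.32, edgeR adjusted p = 0.892) were the farthest from 0, and Egr2 was the 1 gene at an unadjusted p under 0.05. Foxm1 itself was called higher in every NTD group than in the group of the same genotype label without NTD. It averaged 347 ± 34.4 CPM in Het-NTD and 346 ± 56.9 CPM in WT-NTD.

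In experiment 1 none of the 10 genes passed in any comparison, by edgeR or DESeq2, and none had an unadjusted p under 0.05. KO against WT called 0.447% of all genes (0.124% higher, 0.323% lower), KO-NTD against KO 0.00687% (all higher) and KO-NTD against WT 0.44% (0.0619% higher, 0.378% lower). The median log2 difference of the 10 was 0.02, -0.16 and -0.11 in the 3 comparisons, against 0.01, -0.01 and 0.00 over all genes. Libraries of 1 group were far apart for several genes, so the intervals are wide.

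Fos measured 13.7, 13.5 and 26.4 CPM in KO-NTD, 16.1, 36.4 and 46.3 CPM in KO, and 32.4, 24.2 and 38.3 CPM in WT. KO 1 lay with the lowest KO-NTD libraries and KO 3 above every other library. The log2 difference was 0.06 for KO over WT (95% interval -0.87 to 0.99, edgeR adjusted p = 0.972), and 0.38 without KO 1 (0.605). For KO-NTD over KO it was -0.88 (-1.82 to 0.06, edgeR adjusted p = 0.714), and -1.20 without KO 1 (0.124). For KO-NTD over WT it was -0.82 (-1.77 to 0.12, edgeR adjusted p = 0.459).

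Egr1 measured 168, 200 and 232 CPM in KO-NTD, 185, 276 and 305 CPM in KO, and 263, 223 and 267 CPM in WT, so KO 1 was again the lowest of its group. Its log2 difference was 0.02 for KO over WT (edgeR adjusted p = 0.976) and -0.35 for KO-NTD over KO (0.714). Egr2 measured 13.5, 18.9 and 22.0 CPM in KO-NTD, 12.999, 20.8 and 26.9 CPM in KO, and 21.9, 19.8 and 22.2 CPM in WT. Fosl1 ran the other way within KO, at 13.9 CPM in KO 1 against 8.25 and 7.64 CPM in KO 2 and 3.

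Jun had the smallest standard error of the 10 in this experiment. It averaged 163 ± 7.34 CPM in KO-NTD, 163 ± 4.56 CPM in KO and 173 ± 5.56 CPM in WT. Its KO and WT libraries did not overlap, as for 17.3% of all genes, but the log2 difference of -0.08 did not pass (95% interval -0.19 to 0.03, edgeR adjusted p = 0.547). No other gene was apart in KO against WT, and none in KO-NTD against KO (11.2% of all genes) or KO-NTD against WT (21.4%). Fosb, Junb, Egr3, Ier2 and Ier3 gave log2 differences of -0.22 to 0.23 in KO against WT (edgeR adjusted p from 0.519 to 0.998).

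**Figure D3:**
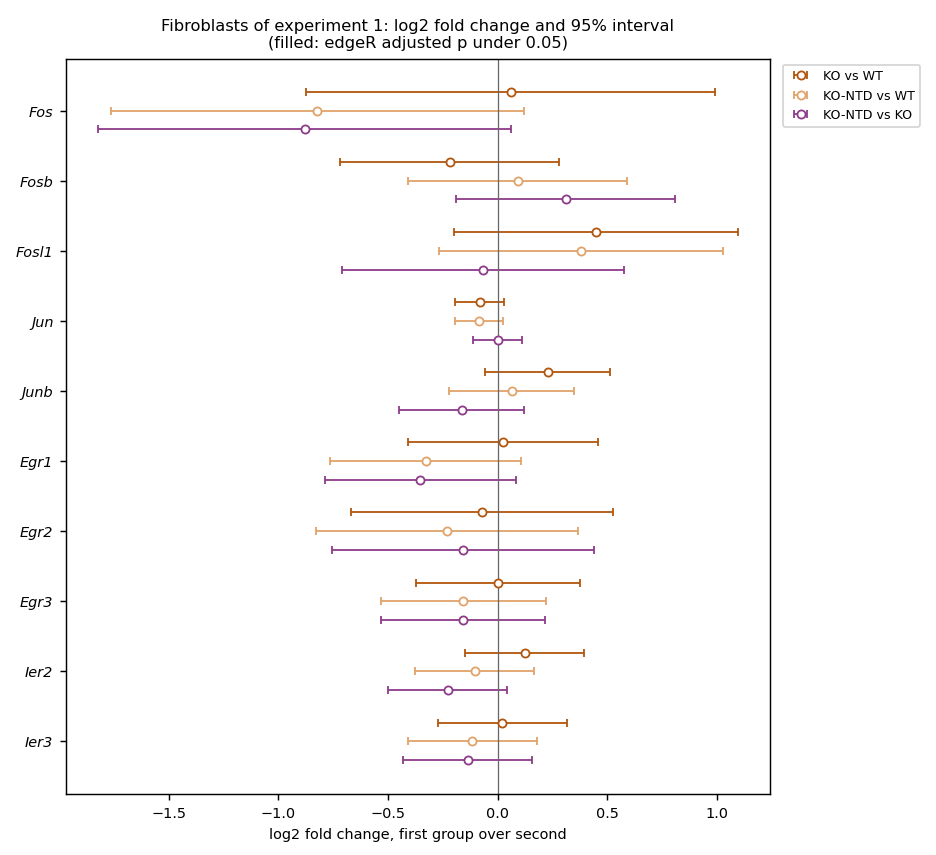
Log2 fold changes of the 10 genes in experiment 1, first named group over second, with 95% intervals from the fit over 9 libraries. No point is filled, since none passed the edgeR test, and the intervals of Fos are the widest and those of Jun the narrowest.

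Macrophage markers varied within the groups of experiment 1, at a summed 32.1, 9.49 and 263 CPM in KO-NTD 1, 2 and 3, 12.1, 360 and 245 CPM in KO 1, 2 and 3, and 88.2, 52.6 and 70.3 CPM in WT 1, 2 and 3. The 3 libraries with the lowest sums, KO-NTD 1, KO-NTD 2 and KO 1, also had the 3 lowest Fos values (13.5 to 16.1 CPM) and the 3 lowest Egr1 values (168 to 200 CPM), against 24.2 to 46.3 CPM of Fos and 223 to 305 CPM of Egr1 in the other 6. Groups held 9.75% of the variance of the macrophage score here. With the score in the fit, likewise chosen with the data in view, Fos stood at -0.14 in KO over WT (edgeR adjusted p = 0.763) and -0.49 in KO-NTD over KO (0.669). Whether macrophages carry these transcripts was not tested.

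**Figure D4:**
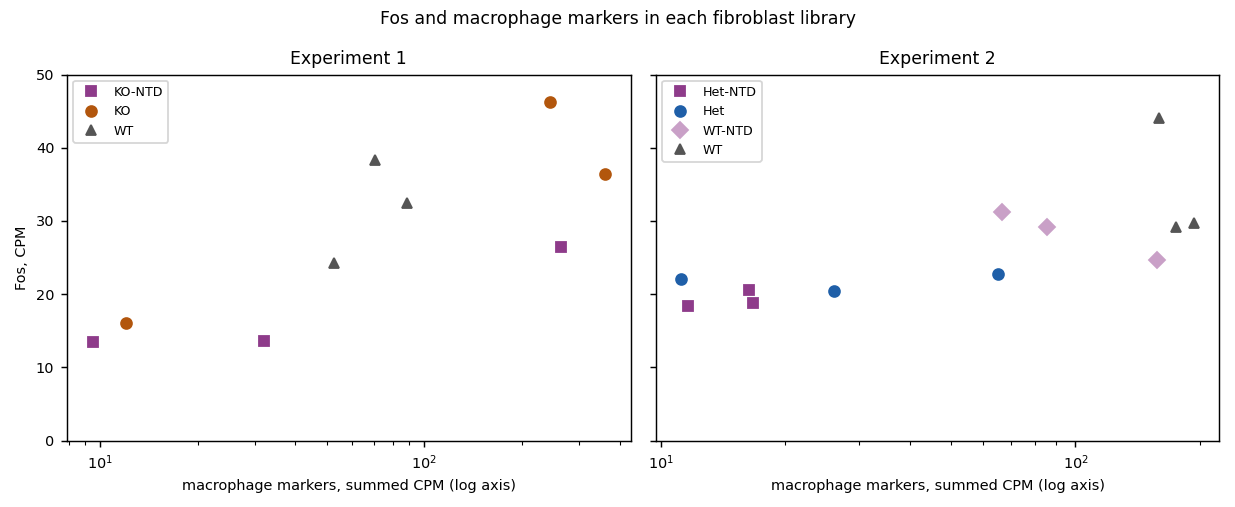
Fos level (CPM) against the summed CPM of 12 macrophage markers (log axis) in each fibroblast library, by experiment, with levels scaled within each. In experiment 1 the 3 libraries with sums of 9.49 to 32.1 CPM had Fos at 13.5 to 16.1 CPM, and in experiment 2 the Het-NTD and Het libraries lie to the lower left of the WT-NTD and WT libraries. Within the groups of experiment 2 the order was mixed. The highest Fos of WT (44.0 CPM) and of WT-NTD (31.2 CPM) was at the lowest sum of the group. That of Het (22.7 CPM) was at the highest sum, and that of Het-NTD (20.5 CPM) in between.

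Across the 21 fibroblast libraries, centred within each experiment, Fos, Egr1 and Ier2 varied together. Pearson's r of log2 CPM was 0.92 between Fos and Egr1 (Spearman's rho 0.92; r 0.97 in experiment 1, 0.84 in experiment 2 and 0.92 within groups), 0.90 between Egr1 and Ier2 and 0.81 between Fos and Ier2. For Fos and Fosl1, r was -0.76 over the 9 libraries of experiment 1 and -0.11 over the 12 of experiment 2. Between Egr1 and Egr2, r was 0.91 over the 9 libraries of experiment 1 and 0.03 over the 12 of experiment 2. The r over an experiment includes differences between its groups. Within groups, over all 21 libraries, r was -0.80 for Fos and Fosl1 and 0.87 for Egr1 and Egr2. These values are descriptions over libraries that share groups and batches, and without the 2 libraries farthest out in Fos its r with Egr1 was 0.92.

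Genes most like the members over the same 21 libraries, among 10943 genes, were picked by r alone. For Fos they were Fgfr3, a receptor for fibroblast growth factors (r = 0.96), the phosphatase Pdp1 (0.95) and Serpinb8 (0.94). For Egr1 they were Lamb2, a laminin chain (0.92), the kinase Fam20c (0.91) and Arhgef10 (0.90), for Jun the kinase Syk (0.88), Lrrc8d (0.87) and Gprc5a (0.86), and for Ier2 Sgsh (0.84), Kctd12 (0.84) and Lipa (0.83). Ier3 had Ctif (0.82), Cd151 (0.80) and Lamp1 (0.76). Sgsh, Lipa and Lamp1 encode lysosomal proteins, but the share of such genes among those searched was not determined and a theme was not tested.

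Other genes of the same response were read from lists in both Het comparisons of experiment 2. Of 36 further immediate early genes, 5 were called higher and 9 lower in Het against WT (14 of 36, against 16.5% of all genes), with a median log2 change of -0.05. Nr4a1, an orphan nuclear receptor, fell to 70.4 ± 5.11 CPM in Het, against 98.7 ± 5.91 CPM in WT (-0.49, edgeR adjusted p = 3.51e-04). Nfil3, a basic leucine zipper factor, rose to 51.3 ± 3.50 CPM in Het, against 37.5 ± 2.28 CPM in WT (0.45, edgeR adjusted p = 6.14e-04). The matricellular gene Cyr61 fell by 0.20 and Tiparp by 0.36 on the log2 scale. In Het-NTD against WT-NTD 2 were called higher and 4 lower (16.7% of the list, against 11.5% of all genes), again with Nr4a1 lower (-0.72) and Nfil3 higher (0.50), and with Tiparp (-0.48) and Ctgf (-0.49) lower.

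Of 29 regulators, which are kinases, receptors and factors that act on these promoters, 3 were called higher and none lower in Het against WT: Mapk3, which encodes the kinase ERK1 (0.22), Map2k1, which encodes MEK1 (0.29), and the ETS factor Elk1 (0.19). Mapk3, Map2k1 and the receptor gene Egfr (0.18) were the 3 called in Het-NTD against WT-NTD. The 3 were 10.3% of the list in each comparison, a smaller share than the 16.5% and 11.5% of all genes called there. Srf, the factor that binds CArG boxes, had 151 ± 4.90 CPM (Het) against 150 ± 9.93 CPM (WT), a log2 difference of 0.00 (edgeR adjusted p = 0.97). Among 14 feedback inhibitors of this signal none rose, and Dusp10 (-0.44) and Spry2 (-0.25) fell in Het against WT (14.3% of the list, close to the 16.5% of all genes called, 8.61% lower). In Het-NTD against WT-NTD 5 of the 14 fell (35.7%, against 11.5% of all genes called, 6.24% lower), among them Spry2 (-0.50), Dusp7 (-0.31), Spry4 (-0.73) and Dusp10 (-0.42). The list medians were -0.03 and -0.24.

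Of 22 genes known as AP-1 or Egr targets, 4 were called higher and 4 lower in Het against WT (36.4% of the list, against 16.5% of all genes). Ccnd1, which encodes cyclin D1, fell to 246 ± 28.0 CPM in Het, against 361 ± 20.5 CPM in WT (-0.55), and the cytokine gene Lif fell by 0.41 on the log2 scale. Vegfa, an angiogenic growth factor, rose to 190 ± 16.5 CPM in Het, against 115 ± 16.9 CPM in WT (0.72), and Pdgfa rose by 0.62. In Het-NTD against WT-NTD, 4 were higher and 3 lower (31.8%, against 11.5% of all genes), with Ccnd1 (-0.76) and the chemokine gene Ccl2 (-0.57) lower and Pdgfa (0.86) and Vegfa (0.64) higher. The same macrophage marker differences stand beside these lists, and their part in them was not tested. No gene of the 4 lists was called in the other fibroblast comparisons of either experiment, or in Het against WT lung.

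WT lung against WT fibroblasts of experiment 2 compared the whole organ with cultured cells in 1 fit of 12 libraries. Of the 10 genes, 7 were called lower in lung and none higher, where 75.6% of all genes were called (41.5% higher, 34.1% lower). Their median log2 difference was -1.94, against 0.14 over all genes. The groups were apart for 8 genes, against 82.1% of all genes. Tissue, culture and library batch cannot be told apart here.

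Apart from Fosl1, the Egr genes had the largest differences of the 10. Egr2 averaged 2.41 ± 0.216 CPM in WT lung and 45.7 ± 2.42 CPM in WT fibroblasts (log2 difference -4.24 ± 0.24, edgeR adjusted p = 2.7e-08). Egr1 averaged 26.6 ± 7.99 CPM in lung and 358 ± 49.2 CPM in fibroblasts (-3.75, edgeR adjusted p = 4.06e-08), and Egr3 1.95 ± 0.836 CPM in lung and 15.7 ± 2.33 CPM in fibroblasts (-3.00, edgeR adjusted p = 9.26e-06). In each case every lung library lay below every fibroblast library.

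AP-1 subunits split. Junb averaged 32.5 ± 3.34 CPM in lung and 144 ± 18.2 CPM in fibroblasts (-2.15, edgeR adjusted p = 4.63e-08), Fos 11.6 ± 1.80 CPM in lung and 38.8 ± 9.33 CPM in fibroblasts (-1.74, 4.86e-06) and Fosb 2.21 ± 0.687 CPM in lung and 6.41 ± 0.779 CPM in fibroblasts (-1.54, 8.98e-04). Jun did not pass, at 198 ± 13.95 CPM in lung and 204 ± 23.3 CPM in fibroblasts (-0.05, 95% interval -0.27 to 0.18, edgeR adjusted p = 0.687). Fosl1 had 6, 0 and 3 counts in the WT lungs, or 0.13, 0 and 0.0801 CPM, against 11.2, 9.24 and 14.9 CPM in WT fibroblasts (-7.26, edgeR adjusted p = 6.41e-07, a fitted value that rests on 9 lung counts).

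Neither Ier gene passed the test. Ier2 averaged 90.4 ± 3.99 CPM in lung and 109 ± 8.69 CPM in fibroblasts (-0.27, 95% interval -0.69 to 0.15, edgeR adjusted p = 0.218). The WT groups of Ier2 did not overlap, and it was called without Lung Het 3, which shares the fit (-0.26, edgeR adjusted p = 0.00609). Ier3, a regulator of cell survival, averaged 60.6 ± 22.2 CPM in lung and 63.5 ± 3.85 CPM in fibroblasts (-0.07, edgeR adjusted p = 0.804). Relatives on the list of other immediate early genes also split: Jund, a Jun family subunit, was higher in lung (177 ± 12.6 CPM in lung and 91.0 ± 6.31 CPM in fibroblasts, 0.96), and Fosl2 lower (63.8 ± 21.6 CPM in lung and 210 ± 16.8 CPM in fibroblasts, -1.72). Of the 36 on that list 11 were higher and 16 lower, of the 29 regulators 4 and 11, of the 14 feedback inhibitors 8 and 5, and of the 22 targets 3 and 16. Called genes were thus 75% of the other immediate early genes, 51.7% of the regulators, 92.9% of the feedback inhibitors and 86.4% of the targets, against 75.6% of all genes, so the first share was that of all genes and the second lay below it. Among the calls with the lowest p-values were Myc (-3.69) and the prostaglandin synthase Ptgs2 (-5.97), Egfr (-2.02) and Mapk3 (1.46), the Egr corepressor Nab2 (-1.65), and the target Ccl2 (-6.90).

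**Figure D5:**
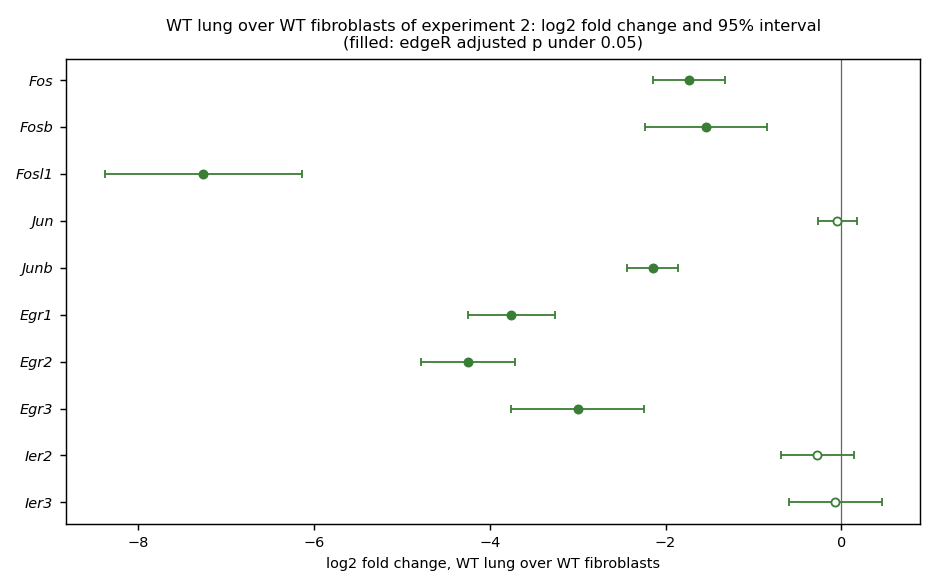
Log2 difference of WT lung over WT fibroblasts of experiment 2 with 95% intervals. Filled points passed the edgeR test: Fos, Fosb, Fosl1, Junb, Egr1, Egr2 and Egr3 lie below 0, and Jun, Ier2 and Ier3 have intervals that include 0.

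Het against WT lung gave no call among the 9 genes that passed the low-count filter, by edgeR or DESeq2, and 0% of all genes were called by edgeR (114 genes had an unadjusted p under 0.05, and DESeq2 called 1). Fosl1 did not pass the filter: it had no count in the 3 Het lungs, where 3 counts would be 0.0510 to 0.0891 CPM on the scale of the fit over lung and fibroblasts. Jun was the 1 gene whose groups were apart, as for 4.24% of all genes, at 185, 190 and 180 CPM in Het lungs and 241, 218 and 210 CPM in WT lungs. Its log2 difference was -0.27 ± 0.11 (edgeR adjusted p = 1, unadjusted p = 0.0423), and -0.24 without Lung Het 3 (edgeR adjusted p = 0.373).

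Fos averaged 14.6 ± 2.34 CPM in Het lungs and 13.1 ± 2.01 CPM in WT lungs (0.16, 95% interval -0.27 to 0.59, edgeR adjusted p = 1), and Egr1 35.2 ± 6.00 CPM in Het lungs and 29.96 ± 9.001 CPM in WT lungs (0.23, edgeR adjusted p = 1). Ier2 measured 59.0 CPM in Lung Het 3, against 111 and 111 CPM in the other Het lungs and 97.7 to 107 CPM in WT lungs. The 9 log2 differences ran between -0.33 for Egr3 and 0.23 for Egr1, with a median of -0.08. Without Lung Het 3, Ier2 stood at 0.13, Egr2 at -0.26, Egr3 at -0.69 and Fos at 0.28, with none called. The Het effect in lung minus that in fibroblasts was not called for any of the 10 by edgeR, where 1.12% of all genes were (0.813% higher, 0.312% lower). For Fos it was 0.82 (95% interval 0.26 to 1.38, edgeR adjusted p = 0.175, unadjusted p = 0.00798), and 0.93 without Lung Het 3 (edgeR adjusted p = 0.0565). DESeq2 called Fosl1, whose Het lung libraries are all at 0, so no size is given. A difference between the tissues in the Het effect on Fos was thus not shown.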

How the data were processed

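The authors deposited 1 table of raw counts per gene symbol for the 27 libraries. Libraries were made with a TruSeq kit that does not mark strand from about 200 ng of RNA, per the labels' protocols. Per the submitters' processing notes, the build was mm10 and the software included featureCounts 1.4.6 (of Subread), Bowtie2 2.2.6 and TopHat2 2.0.14. Sources used here did not give the annotation or strand setting. Totals were 29730693 to 69517834 counts. Among genes with 1 to 30 counts, 61.5 to 67.3% of counts were even, and counting floors (3 counts) cover counting error only.

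Separate fits were made for experiment 1, experiment 2 and lung, with a joint fit of lung and experiment 2 WT and Het, in edgeR 4.0.16 in R 4.3.3 (filterByExpr, minimum count 10, TMM, robust quasi-likelihood F test, two-sided, Benjamini-Hochberg, threshold 0.05). Fits held 14551, 14314, 15933 and 16364 genes with 6, 8, 4 and 8 residual degrees of freedom. All 10 genes passed the filter except Fosl1 in the lung fit. Alternatives were DESeq2 1.42.0, RLE scaling, no filter, the 2 groups alone, a replicate block, each library left out and a macrophage covariate. The test was checked on simulated counts. Groups are called apart where no values overlap. An exact permutation test of 3 against 3 cannot go below p = 0.1 and was not used. The closest replicates had a chi-square of 5.88 per degree of freedom, more than sampling noise, and all 27 libraries were kept as replicates. From the lists of other immediate early genes, regulators, feedback inhibitors and targets, up to 4 genes a list and comparison were named by lowest p among those called, and Fosl2, Jund and Srf were named after their values were seen; some results of this rule are not reported here. Like genes were the 3 with the highest r (log2 CPM, prior count 2, mean log2 CPM of at least 1, predicted models left out). Markers were listed for fibroblasts, macrophages, alveolar type 1 and 2 cells, endothelium, neutrophils, T cells and erythroid cells. The members and lists were chosen with earlier results of these data known.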

Additional observations from a re-analysis of the deposited data

How the results depend on the processing

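Of 1740 recalculated log2 values of the 10 genes under the alternatives, none that passed reversed its sign. RLE scaling and no filter changed no member's call. Counts of all genes called moved as follows. KO against WT had 65, and 449 with DESeq2, 445 with the macrophage covariate, 36 with its 2 groups alone and 24 to 142 with 1 library left out (142 without KO 1). KO-NTD against KO had 1, and 26, 2 and 2 with DESeq2, the covariate and no filter, and 1 to 29 (29 without KO 1). KO-NTD against WT had 64, and 378, 239 and 100 with DESeq2, the covariate and the 2 groups alone, and 34 to 211 (211 without KO 1). Het against WT had 2362, and 521 and 1389 with the covariate and the 2 groups alone, and 1304 to 2682 (1304 without Het 3). Het-NTD against Het had 2, and 23, 1 and 20 with DESeq2, the covariate and the 2 groups alone, and 1 to 3. WT-NTD against WT had 2, and 30, 5 and 1 with DESeq2, no filter and the 2 groups alone, and 2 to 119 (119 without WT 1). Het-NTD against WT-NTD had 1643, and 181 with the covariate and 739 to 1846 (739 without Het-NTD 1). The difference of NTD effects had 0, and 3 with DESeq2 and 0 to 2. Het against WT lung had 0, and 1 with DESeq2 and 0 in each fit without 1 library. The lung minus fibroblast Het effect had 184, and 711 with DESeq2 and 39 to 546 (546 without Lung Het 3). WT lung against WT fibroblasts had 12370, and 11593 to 13320. Members called were 3 in Het against WT, and 0 with the covariate, 1 with the 2 groups alone and 2 to 4 with 1 library left out. They were 1 in Het-NTD against WT-NTD, and 2 with DESeq2, 0 with the covariate, 3 with the 2 groups alone (Fos, Egr1 and Ier2) and 0 to 3. DESeq2 called 1 member in Het-NTD against Het and 1 in the lung minus fibroblast effect, where the reported counts were 0, and with 1 library left out both stayed at 0. WT lung against WT fibroblasts had 7 members, and 7 to 8. The macrophage covariate was chosen after seeing the data. The causes of these moves were not tested. Whether replicate numbers pair the samples was not settled. Deviations of same-numbered libraries correlated at -0.483 to 0.608 in experiment 1 (5 of 9 over 0.1). In experiment 2 they did at -0.209 to 0.446 (6 of 18) and in lung at -0.338 to 0.12 (1 of 3). For WT and WT-NTD the same-numbered values were 0.238, 0.446 and 0.072, against -0.383 to 0.153 otherwise. For Het and Het-NTD they were -0.0275, 0.109 and 0.126, against -0.137 to 0.0236. For KO and KO-NTD they were 0.174, -0.483 and 0.608, against -0.712 to 0.634. With the replicate number as a block, counts were 1 in Het-NTD against Het, 4 in WT-NTD against WT and 79 in the lung minus fibroblast effect, and 2 members were called in Het-NTD against WT-NTD, Ier2 beside Fos (-0.19, edgeR adjusted p = 0.0327). The block changed no other member's call. Genes with few counts, Fosl1 and to a lesser degree Fosb and Egr3 in lung, are limited by depth.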

Other observations

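In Het against WT lung, 31 of 35 other immediate early genes that could be tested had log2 differences below 0, with a median of -0.20 against 0.01 over all genes. None passed in edgeR (all adjusted p = 1). Of 14 feedback inhibitors 12 were below 0 there (median -0.15). The 9 members themselves were 5 below and 4 above 0. Lung Het 3, which stood apart from the other Het lungs, is part of each of these values.

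For Fos and Egr2, r across libraries was 0.83 over the 9 of experiment 1 and -0.43 over the 12 of experiment 2. Within groups, over all 21 fibroblast libraries, it was 0.82, so the value of experiment 2 includes differences between its groups. In experiment 2 the Het libraries held 3 of the 4 highest Egr2 values (46.3 to 53.1 CPM) together with low Fos (20.4 to 22.7 CPM). The difference between the experiments was not tested.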
